A study of Mus musculus with 6 samples.

Results

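The genes described here encode 9 receptors of selective autophagy, taken from the 27179 genes of the deposited table by their symbols, Sqstm1, Nbr1, Optn, Tax1bp1, Calcoco1, Tollip, Wdfy3, Tex264 and Ccpg1. Each symbol had 1 row, and all 9 genes had reads. RNA was sequenced from B16F10 cells, an established mouse melanoma line of wild-type genotype, after 6 h with 0.01% ozonated olive oil (OZO) or with 0.01% olive oil that had not been ozonated (OLO), with 3 libraries per group. The value used for each gene was the authors' average of log2 CPM, read counts scaled to a common library size, over all 6 libraries of both groups. It describes how strongly a receptor was expressed in these cultures as a whole, and every level, place and ratio here refers to this pooled average. For a gene whose level differs between OZO and OLO it lies between the levels of both groups. The average carries no spread between libraries, and no difference between OZO and OLO can be read from it. That comparison was not analysed here, so no test between the treatments is given.

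Selective autophagy delivers chosen cargo to the lysosome, and its receptors are the adaptors that hold cargo with one end and the growing autophagosome membrane with the other. The membrane is bound through small ubiquitin-like proteins of the ATG8 family (LC3 and GABARAP). Many receptors recognise ubiquitin on protein aggregates, damaged mitochondria or bacteria, whereas others sit in or bind to the endoplasmic reticulum (ER) and lead to its turnover (ER-phagy). The Sqstm1 product, p62, also binds KEAP1, the protein that keeps the antioxidant transcription factor NRF2 low.

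The depth of the data was recovered from the genes without reads. For 6025 genes no read had been counted in any library, and these shared the lowest average, -5.296 on the log2 CPM scale. With the 0.5 reads that voom adds to each count, this value corresponds to a geometric mean of the scaled library sizes of 19641945 reads. A gene at 1 CPM therefore rested on 19.6 reads per library, and the weakest of the receptors, Tex264, on 564. Genes of the melanocyte lineage were high, with 8 of 8 markers between 109 CPM (Sox10) and 7052 CPM (Dct, a melanin enzyme). Markers of other cells were low in comparison. Of the 8 markers of keratinocytes, fibroblasts, leukocytes and endothelium, Krt5 had no reads and the highest was Cd68 at 5.47 CPM.

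Over the pooled libraries, Sqstm1 had the highest level of the 9 receptors. Its average was 10.47 on the log2 CPM scale, or 1422 CPM, which stands for about 27934 reads per library. Only 38 of the 21154 genes with reads had a higher average. The gene lies on the minus strand of chromosome 11 (GRCm38, chr11:50199366-50210827) and has 8 separate exonic blocks in the GENCODE annotation. Levels of different genes can be compared only per length, and after division by its exonic length of 3.36 kb Sqstm1 was at 424 CPM per kb. The other 8 receptors together came to 194 CPM per kb, so Sqstm1 exceeded their sum 2.19-fold and made up 68.6% of the 9. This ratio depended on the length used, and was 1.56 by longest transcript, 1.53 by coding length and 1.01 without length.

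Among protein-coding genes with reads, Sqstm1 held place 41 of 17541 in level per kb. Directly above it were Fth1, the ferritin heavy chain (8.83 on the scale of log2 CPM per kb), and the calmodulin gene Calm2 (8.75). Sqstm1 stood at 8.73 on this scale. Directly below followed Ywhae, a 14-3-3 protein (8.72), and the translation elongation factor Eef2 (8.71). How far these neighbours differ beyond the spread between libraries cannot be told from an average.

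**Figure D1:**
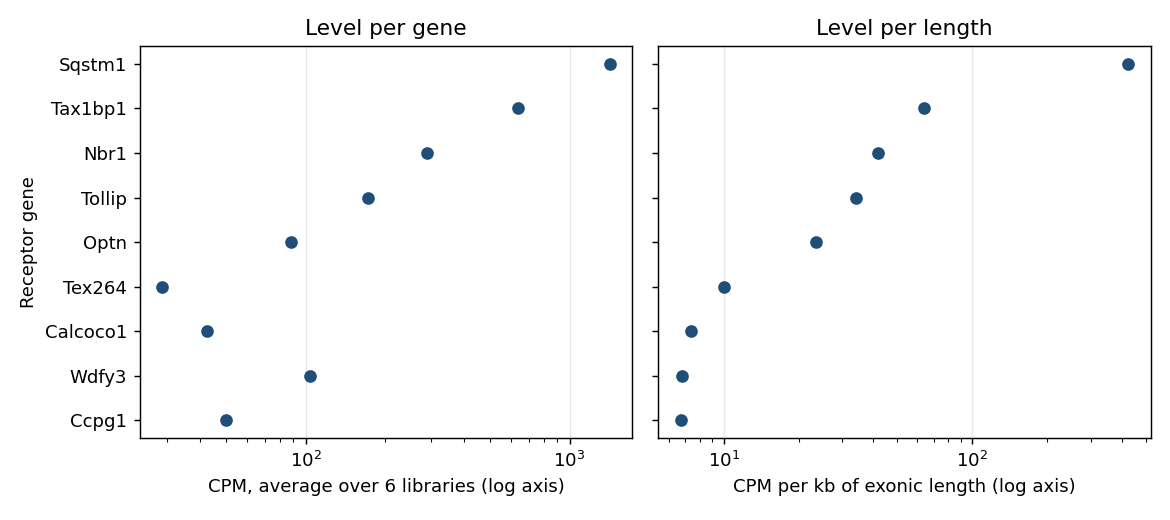
Each point is 1 receptor, as CPM (left) and as CPM per kb of exonic length (right), both on log axes and both the authors' average over 6 libraries, without error bars because the average carries none. Sqstm1 lies at 1422 CPM and 424 CPM per kb, to the right of the 8 other receptors in both panels.

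The promoters of the pair of receptors with the highest levels are shown, because these genes gave the most abundant receptor transcripts. Which start sites the cells used was not measured. They come from RefSeq on GRCm38.p6, read 5′ to 3′, and hold the 250 bases before the start site. Capitals mark GC boxes (GGGCGG on either strand, the motif of SP and KLF factors) and the antioxidant response element (TGACNNNGC, the motif bound by NRF2 with a small MAF protein). The Sqstm1 promoter lies at chr11:50210821-50211070 on the minus strand, and the 2 Tax1bp1 promoters lie at chr6:52713479-52713728 and chr6:52713915-52714164 on the plus strand.
Sqstm1: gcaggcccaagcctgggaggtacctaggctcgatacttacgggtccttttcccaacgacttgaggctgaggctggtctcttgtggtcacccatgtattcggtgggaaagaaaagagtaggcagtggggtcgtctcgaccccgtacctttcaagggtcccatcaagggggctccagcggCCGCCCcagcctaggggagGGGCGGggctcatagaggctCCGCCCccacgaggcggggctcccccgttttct
Tax1bp1, upstream: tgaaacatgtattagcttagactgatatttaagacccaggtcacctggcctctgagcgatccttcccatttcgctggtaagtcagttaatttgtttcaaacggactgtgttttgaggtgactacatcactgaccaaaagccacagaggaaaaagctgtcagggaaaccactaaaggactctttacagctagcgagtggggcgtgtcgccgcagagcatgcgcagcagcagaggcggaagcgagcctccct
Tax1bp1, downstream: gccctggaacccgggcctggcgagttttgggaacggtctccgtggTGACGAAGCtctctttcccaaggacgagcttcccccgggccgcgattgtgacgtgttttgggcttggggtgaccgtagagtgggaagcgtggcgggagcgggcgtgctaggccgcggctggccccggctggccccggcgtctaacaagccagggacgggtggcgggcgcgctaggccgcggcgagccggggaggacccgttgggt

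Of the 9 genes, 8 matched the promoter table, with 11 promoters, and Wdfy3 did not. All motifs were searched on both strands of the 300 bases from 250 before to 50 after the start. A GC box was present in 9 of the 11 receptor promoters and in 35.7% of all 32851 promoters of the table. Each of the 8 genes had at least 1 promoter with it, and the 2 promoters of Tex264 overlap, so that some of its GC boxes are counted in both. In Sqstm1 the GC boxes began 72, 53 and 33 bases before the start site.

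The antioxidant response element was found in 1 receptor promoter, the downstream one of Tax1bp1, and in 12.4% of all promoters. The E-box CACGTG, bound by TFEB, MITF and related factors, was in 0 of the 11 and in 7.15% of all. Neither TGATGNAA, a motif of ATF4 with a C/EBP protein (3.97% of all promoters), nor TGANTCA, the AP-1 motif (7.81%), was in any of the 11. The letters TATAAA were in the Sqstm1 promoter alone among the 11, beginning 1 base before the start site, and in 13.6% of all. The share of G and C in the receptor promoters had a median of 62%, against 52.7% over all promoters. A match describes letters in this window and does not show binding. Sequence outside the window was not searched, so a gene without a match here may have the motif elsewhere.

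Receptors that bind ubiquitin stood above the rest of the 9. These were Sqstm1, Tax1bp1, Nbr1, Tollip and Optn, and in level per kb they took places 1 to 5. Their values ran from 23.4 to 424 CPM per kb, whereas the other 4 genes lay between 6.70 and 9.98 CPM per kb. Together the 5 genes held 95.0% of the receptors' summed CPM per kb. Roles were assigned with the values known, and the split is a description without a test.

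Tax1bp1, a receptor with coiled coils and ubiquitin-binding zinc fingers that acts in aggregate clearance and also restrains inflammatory signalling, was second at 637 CPM. Only 140 of the genes with reads were higher. Per kb it was at 63.8 CPM, and Sqstm1 exceeded it 6.64-fold. The gene spans chr6:52713729-52766780 on the plus strand of GRCm38. Its exonic length of 9.99 kb was much greater than its longest transcript of 4249 bases, and by the longest transcript Sqstm1 exceeded it 3.55-fold.

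Nbr1, which shares the architecture of p62 and assembles with it on ubiquitinated aggregates, held place 3 at 288 CPM. It too lies on chromosome 11 (chr11:101552149-101581951, plus strand). Per kb the level was 41.9 CPM, and 10.1-fold lower than that of Sqstm1. By longest transcript the ratio was 8.84, and by coding length 11.03. The order of this pair was thus the same under each length.

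Tollip, an adaptor of Toll-like receptor signalling that couples ubiquitinated cargo to ATG8 proteins, averaged 172 CPM and 33.9 CPM per kb. It lies at chr7:141874813-141918507 on the minus strand and has the shortest coding sequence of the 9, 822 bases. By coding length it therefore moved past Nbr1 to place 3, at 209 against 97.2 CPM per kb.

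Optn encodes optineurin, a receptor for damaged mitochondria and bacteria that is phosphorylated by the kinase TBK1. It averaged 87.8 CPM and 23.4 CPM per kb (chr2:5020642-5064051, minus strand). Tbk1 itself was at 17.5 CPM per kb. Between Optn and the next receptor, Tex264, lay a gap of 1.23 on the scale of log2 CPM per kb, a 2.34-fold step. By exonic length only the step below Sqstm1, 2.73 on that scale, was larger among neighbouring receptors, which did not hold by longest transcript or coding length.

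The 3 receptors of the ER among the 9 lay below those that bind ubiquitin. Tex264, a membrane receptor of the ER with an LC3-binding site facing the cytosol, was lowest of the 9 per gene, at 28.7 CPM, but held place 6 per kb, at 9.98 CPM (chr9:106658746-106685927, minus strand). Calcoco1, a soluble receptor for ER and Golgi, averaged 42.2 CPM and 7.37 CPM per kb (chr15:102706777-102722178, minus strand). Ccpg1, a membrane receptor that binds both LC3 and the autophagy initiation protein FIP200, averaged 50.2 CPM and 6.70 CPM per kb (chr9:72985429-73016340, plus strand). By its longest transcript of 3151 bases, against 7497 exonic bases, it was at 15.9 CPM per kb and held place 6 of the 9. The 3 genes held 3.89% of the receptors' summed CPM per kb.

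Wdfy3 encodes ALFY, a very large scaffold that bridges p62-bound aggregates to the autophagy machinery. It held place 5 per gene, at 104 CPM, and place 8 per kb, at 6.80 CPM. Its exonic length of 15.3 kb was the greatest of the 9 and that of Tex264, 2.87 kb, the smallest. The gene covers 237 kb in 69 exonic blocks (chr5:101832956-102069921, minus strand). Long transcripts give more reads per molecule, and the place of Wdfy3 moved once length was taken into account.

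**Figure D2:**
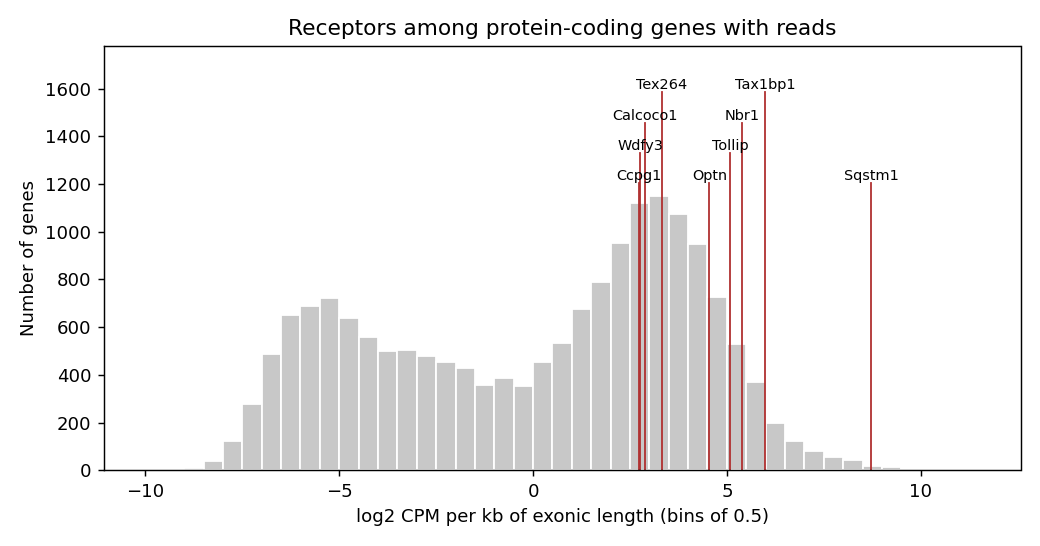
Grey bars count the 17541 protein-coding genes with reads by log2 CPM per kb of exonic length, in bins of 0.5, and red lines mark the 9 receptors. Sqstm1 at 8.73 lies in the right tail, Optn, Tollip, Nbr1 and Tax1bp1 lie between 4.55 and 6.00, and the other 4 receptors lie between 2.74 and 3.32.

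All 9 receptors were above the median of protein-coding genes with reads, which was 1.09 on the scale of log2 CPM per kb. Genes with reads include those with 1 read in 1 library. Their levels had a lower peak at the bin from -5.5 (724 genes) and an upper one at the bin from 3.0 (1148). Ccpg1 (2.74), Wdfy3 (2.77) and Calcoco1 (2.88) lay below this upper bin and Tex264 (3.32) within it. The receptors that bind ubiquitin lay above it. A place above the median therefore does not set the lower receptors above most of the genes in the upper peak. The median of the receptors was 4.55 on that scale. By exonic length the lowest, Ccpg1, exceeded 66.2% of all protein-coding genes with reads and the highest, Sqstm1, 99.8%. In the order per kb, Wdfy3 and Ccpg1 differed by 0.022 on the log2 scale, about as much as counting error alone (0.023, standard error). Calcoco1 and Wdfy3 differed by 0.12, with a counting error of 0.024. Counting error is the smallest error these values can have, since it leaves out the spread between cultures and treatments. That spread was not analysed here, so the order is that of the averages and was not tested.

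**Figure D3:**
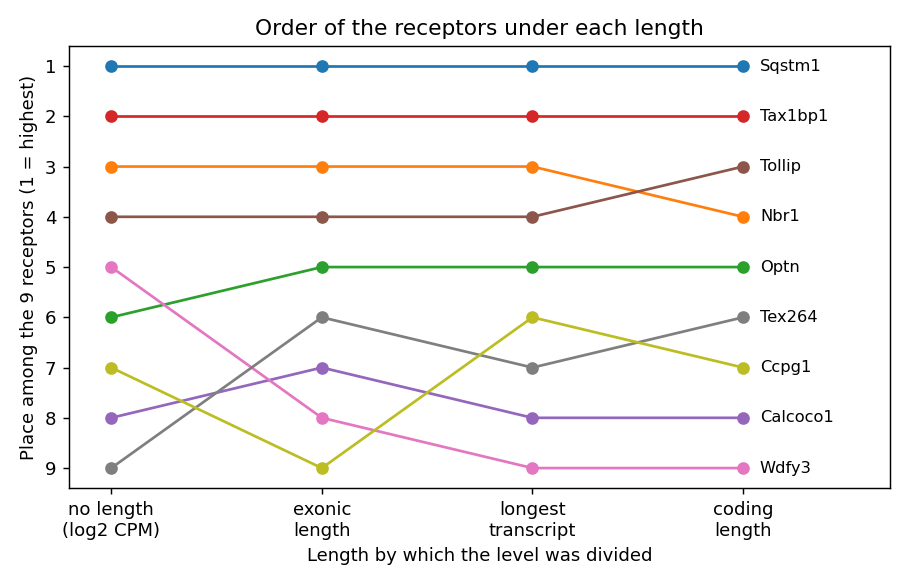
The place of each receptor among the 9 (1 is the highest) is drawn for the level without length and after division by exonic length, longest transcript or coding length. Sqstm1 kept place 1 and Tax1bp1 place 2 in all 4, Tollip passed Nbr1 by coding length, Wdfy3 stood above Optn only without length, and Tex264, Ccpg1, Calcoco1 and Wdfy3 held changing places below Optn by the 3 lengths.

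Reads of some receptors could be shared with other genes. Sqstm1 overlaps Mrnip, a DNA repair gene on the opposite strand, over 580 exonic bases, 17.3% of its exonic length, and Mrnip was at 13.5 CPM. Of the exonic bases of Ccpg1, 42.9% are also annotated to Gm44503 on the same strand and 28.9% to Pigb, an enzyme of GPI anchor synthesis on the opposite strand, which was at 11.8 CPM. Gm44503 had no row under that symbol. The library kit keeps strand, but whether the counting used it is not given in the sources used here, so reads of overlapping genes cannot be told apart. Calcoco1 shared stretches of at least 150 bases at 95% identity or more with transcripts of 5 other genes on the same strand and of 6 on the opposite strand. The longest of these per gene was 150 or 151 bases, at 95.3% to 96.7% identity, and whether reads were shared was not tested. Wdfy3 shared stretches within the same limits with 2 genes on the opposite strand, Gm20548 and Gm42934. For Sqstm1, Nbr1, Optn, Tax1bp1, Tollip, Wdfy3 and Tex264 no such stretch in another gene was found on the same strand.

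The 5 ATG8 genes, whose products the receptors bind, were lower per kb than Sqstm1. Gabarapl1 was the highest at 58.0 CPM per kb, followed by Gabarapl2 at 19.3, Gabarap at 15.7, Map1lc3b at 14.9 and Map1lc3a at 8.58. Together they came to 117 CPM per kb, and Sqstm1 alone exceeded this sum 3.64-fold by exonic length. Only exonic length was used for these genes and for the lists below. How far their ratios and orders depend on the length was not tested. Gabarapl1 lay close to Tax1bp1 (63.8 CPM per kb), and the other 4 between Wdfy3 and Optn. These are levels of RNA and say nothing of the amounts of protein.

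Of 19 other genes of selective autophagy receptors, 18 had reads, and the median over all 19 was 4.46 on the scale of log2 CPM per kb, close to the 4.55 of the 9 receptors. None reached Sqstm1. The highest were Bnip3, a receptor on mitochondria (66.8 CPM per kb), Sec62, an ER translocation protein that also acts in ER-phagy (56.9), and the inner mitochondrial membrane protein Phb2 (54.2). The lowest with reads were Stbd1, which binds glycogen (0.60 CPM per kb), and Ncoa4, the receptor for ferritin (5.91). Calcoco2, the gene of NDP52 and a relative of Calcoco1 and Tax1bp1, had no read in any of the 6 libraries. By exonic length, the only length used for this group, several other genes of ER-phagy were above each of Tex264, Calcoco1 and Ccpg1. Beside Sec62, these were Rtn3 at 44.8, Retreg3 at 35.7, Retreg2 at 23.6, Atl3 at 18.5 and Retreg1 at 10.8 CPM per kb, whereas Cdk5rap3, which acts on ribosomes stalled at the ER, was at 7.84.

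**Figure D4:**
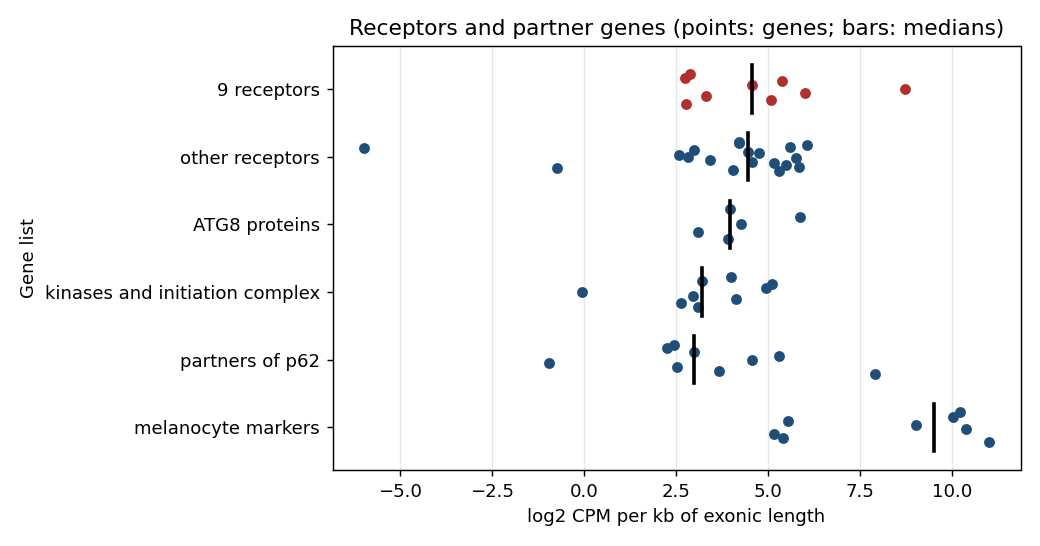
Each point is 1 gene on the scale of log2 CPM per kb of exonic length, the black bars are medians of each list, and the 9 receptors are in red. The rightmost receptor is Sqstm1 at 8.73, only melanocyte markers (5 of 8) lie further right, and the leftmost point of the other receptors is Calcoco2, which had no reads and is drawn at the value of the 0.5 added reads.

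Kinases that act on the receptors and the initiation complex had a lower median than the 9 receptors. The 9 genes of this list had a median of 3.19 on the scale of log2 CPM per kb, against 4.55 for the receptors, and all had reads. Single genes of the list were above single receptors, as Csnk2a1 and Csnk2b were above Optn (23.4 CPM per kb). Casein kinase 2, which phosphorylates p62 and other receptors, had the highest values, at 34.6 CPM per kb for Csnk2a1 and 30.8 for Csnk2b, and Tbk1 followed. Ikbke, the close relative of Tbk1, was lowest at 0.96 CPM per kb. Ulk1, the kinase that starts autophagosome formation, was at 6.17 and Rb1cc1, which encodes FIP200, at 7.75.

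The partners of p62 spread more widely. Nfe2l2, the gene of NRF2, was at 39.4 CPM per kb, and Keap1 was at 4.79, so that Sqstm1 exceeded Nfe2l2 10.8-fold and Keap1 88.5-fold per kb. The ubiquitin gene Ubb was the highest of the 9 listed, at 241 CPM per kb, and Sqstm1 exceeded it 1.76-fold. Of the atypical protein kinases C that bind p62, Prkci was at 23.4 CPM per kb and Prkcz at 0.51.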

How the data were processed

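RNA of 3 OZO and 3 OLO cultures of B16F10 cells was sequenced. According to the methods and the submitters' processing notes, the authors aligned reads to mm10 with HISAT2 2.1.0, counted them with featureCounts 2.1.1 and compared the groups with limma-voom 3.58.1. The annotation used in counting, the filters and the strand use are not given in the sources used here. The deposited table holds, per gene, the average log2 CPM over the 6 libraries, which was used, and 5 columns of the authors' own comparison (log2 fold change, statistic, p-values and log-odds), which were not used. No values of single libraries were analysed here, so edgeR, limma and other tests planned for such values were not run.

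CPM is 2 to the power of the deposited log2 average, a geometric mean over libraries that includes the 0.5 reads added by voom. The library size was computed from the value of genes without reads. A run on simulated counts checked only the arithmetic of this step, because genes without reads there fix the library size by construction. 1212 genes lay, within 1e-06, at the value of 1 read in 1 library. Counting errors assume Poisson counts over 6 libraries. Exonic length (all annotated exons merged), longest transcript, coding length, positions and overlaps come from GENCODE release M21 (GRCm38), which held 23882 of the 24126 Ensembl identifiers. Shared stretches were searched with BLAST 2.17.0. Python 3.11.15, numpy 2.4.6, pandas 2.3.3 and matplotlib 3.10.9 were used. The receptors, roles and lists were chosen with earlier results of these data known. The genes named were the 9 receptors, at most the 3 highest and 3 lowest of each list, and the pair of genes on either side of Sqstm1 in level per kb. List genes beyond these enter only the counts and medians, and 1 gene was left out of the lists and is not reported here. Rtn3, Atl3, Cdk5rap3 and the Retreg genes were named beyond this rule, after their values had been seen.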

Additional observations from a re-analysis of the deposited data

How the results depend on the processing

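No paired analysis was possible because only 1 average over both groups was used. For the same reason the other test, filter, replicate block and omission of each replicate were not run. The median percentile of the 9 receptors was 88.9 among genes with reads, 91.4 among all genes of the table and 86.7 among protein-coding genes with reads. The median level, 6.71 on the log2 CPM scale, moved by less than its counting error without the 0.5 added reads. Sqstm1 minus Nbr1 was 3.34 on the scale of log2 CPM per kb by exonic length, 3.14 by longest transcript and 3.46 by coding length, and 2.30 without length. Of 27 places among the 9 receptors under another length or none, 14 differed from the place by exonic length, and Sqstm1 was first in 4 of 4 settings. Depth does not limit the receptors, whose weakest member rested on 564 reads per library, but the spread between libraries and the difference between the treatments were not analysed here.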
